A study of Homo sapiens with 6 samples.

Results

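The TMED genes encode the p24 proteins, small type I membrane proteins that shuttle between the endoplasmic reticulum and the Golgi apparatus. The 9 genes described here were picked by gene symbol (TMED1, TMED2, TMED3, TMED4, TMED5, TMED7, TMED8, TMED9 and TMED10), and the family was taken up because the estimate for TMED2 was lower in cells with an FTO hairpin. They are 9 of 61806 genes listed. Reads were found for 7 of the 9, and TMED2 alone averaged 10 or more reads per library.

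RNA was sequenced from MG63, an established human osteosarcoma cell line, in 6 libraries. The group labelled shNC (n = 3) served as control. The knockdown group (shFTO, n = 3) carried a stable short hairpin against FTO, which encodes an RNA demethylase acting on N6-methyladenosine. Both groups share the cell line, and the labels name biological replicates without saying how many hairpins or clones were used. A value with ± gives the mean and SD of a group (n = 3). The study asks which transcripts and pathways depend on FTO.

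The p24 proteins have a lumenal GOLD domain, a coiled coil, a single membrane span and a short cytosolic tail that binds the COPII coat on the way out of the endoplasmic reticulum and the COPI coat on the way back. They act as heteromeric complexes that load cargo, best known for GPI-anchored proteins, into transport vesicles. TMED2 is the only vertebrate member of the beta subfamily and TMED10 the only member of the delta subfamily. TMED4 and TMED9 belong to the alpha subfamily, and TMED1, TMED3, TMED5 and TMED7 to the gamma subfamily. TMED8 shares the family name and a GOLD domain but is usually left out of these subfamilies.

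The deposited values stand for few reads. Expression was deposited as FPKM (reads scaled to exonic length and to the library's total), and the whole reads behind the values came to between 93629 and 106245 per library, 592760 in all. Whether these are all reads of each library or a subset is not given in the sources used here, so reads, limits and zeros are those of the deposited values. FTO was at 0 reads in all 6 libraries. Where 0 reads are seen, 3 is about the 95% upper bound on the reads expected, for counting error only. That many would stand at 0.486 FPKM over the 3 shNC libraries and 0.462 over the 3 shFTO libraries. The labels could therefore not be checked on the targeted gene. Of 10 mesenchymal and osteoblast markers 7 had reads, at 76.9 to 97.0 of 100000 reads in shNC and 95.1 to 103.1 in shFTO, while ALPL, BGLAP and SPP1 were at 0. Epithelial markers had 8 reads (at most 1.07 of 100000 in an shNC library and 3.76 in an shFTO library), endothelial markers 1 read and blood markers 0.

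TMED2 (ENSG00000086598, GRCh38 chromosome 12, 123584533 to 123598582, plus strand) lies head to head with its divergent transcript TMED2-DT, which runs on the minus strand from 123585115 back to 123575891 and overlaps the start of TMED2 by 583 bases. The stretch just before the RefSeq start site is shown because TMED2 is the one family member with ample reads. It lies inside the TMED2-DT locus and covers the 250 bases at chr12:123584302-123584551, plus strand, RefSeq, GRCh38.p14. The RefSeq start site, 123584552, lies downstream of the listed gene start, 123584533. The last bases of the stretch are therefore inside TMED2 as listed. Capitals mark a CCAAT box, which begins 73 bases before the start site, and CGTGG, the reverse complement of CCACG, which begins 94 bases before it.
TMED2: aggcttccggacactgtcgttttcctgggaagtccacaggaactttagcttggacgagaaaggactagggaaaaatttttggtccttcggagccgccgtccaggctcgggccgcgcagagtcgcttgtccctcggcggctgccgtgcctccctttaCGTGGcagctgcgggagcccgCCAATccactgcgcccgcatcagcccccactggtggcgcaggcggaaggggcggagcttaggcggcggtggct

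In this window TMED2 had 23 CG pairs. RefSeq windows were matched for 7 of the 9 genes (8 windows, as TMED1 has a pair of start sites), and all 8 reached the median of 11 CG pairs over 35116 windows. CCAAT, searched on both strands, was found in 4 of the 8 windows and in 32.0% of all windows. CCACG, the second part of the endoplasmic reticulum stress response element, was found in 5 of the 8 and in 33.5% of all. The full element, CCAAT and CCACG with 9 bases between them, was in 0 of the 8 and in 0.0740% of all, and the TATA box core TATAAA in 0 of the 8 and in 10.7% of all. TMED2-DT was at 0 reads in all 6 libraries. Within 100000 bases on either side of TMED2, 12 other genes are listed. Of these, 4 had reads: RILPL1 had 3, EIF2B1 had 2, and DDX55 and TCTN2 had 1 each. TMED2 was thus the only gene of this neighbourhood with more than 3 reads.

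TMED2 had by far the highest level of the family. Its FPKM was 149, 165 and 184 in shNC replicates 1, 2 and 3, and 88.4, 111 and 93.3 in shFTO replicates 1, 2 and 3. All 3 shFTO libraries lay below all 3 shNC libraries. These values rest on 54, 64 and 66 reads in shNC and on 36, 40 and 37 reads in shFTO. The group means were 166 ± 17.3 FPKM in shNC and 97.5 ± 11.8 in shFTO, a level 1.70-fold higher in shNC. On the log2(FPKM + 1) scale the difference, shFTO minus shNC, was -0.76 (SE 0.20). This difference is the value by which the family was picked, so it is given as a description with no test. Among the 705 genes that averaged 10 or more reads per library, 6 had a lower estimate than TMED2. That estimate picked the family, so nothing is read from this rank. Of these 705 genes, 33 (4.68%) were lower in every shFTO library than in any shNC library, and 36 (5.11%) were higher in every one. In bulk RNA fewer cells with a transcript and less of it per cell cannot be told apart.

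**Figure D1:**
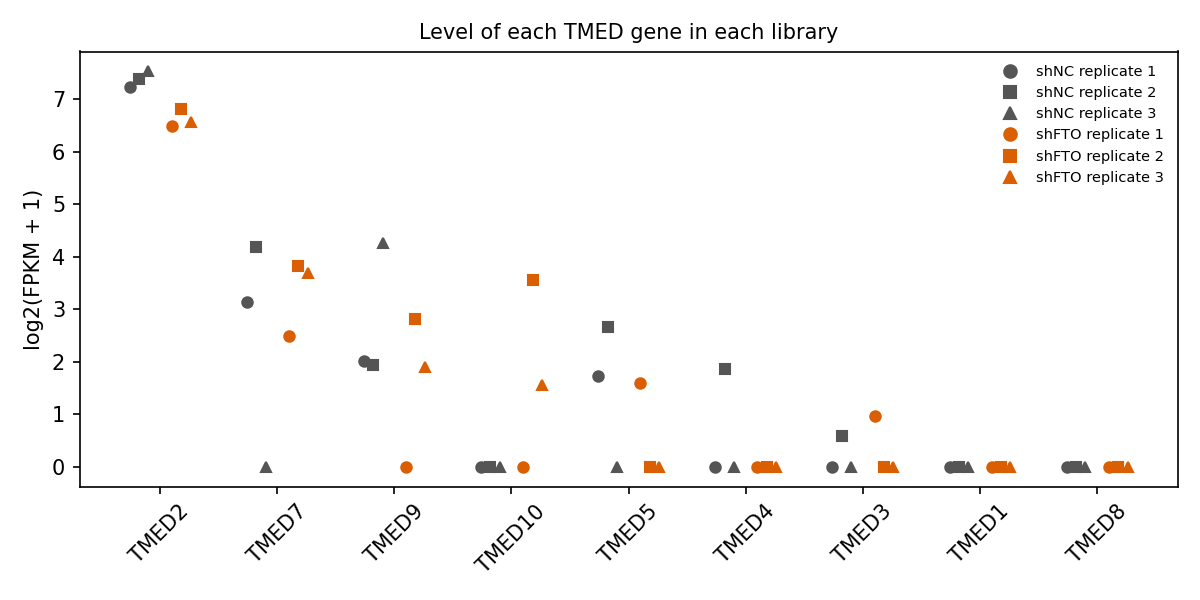
Level of each of the 9 TMED genes in each library, as log2(FPKM + 1) on the vertical axis, with genes ordered by their mean on the horizontal axis. Grey marks are shNC and orange marks shFTO libraries, with the replicate number given by the shape. TMED2 lies above every other member in every library, and TMED1 and TMED8 are at 0 throughout.

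TMED10, the delta subfamily member and a partner of TMED2 in p24 complexes (ENSG00000170348, chromosome 14, 75131469 to 75176612, minus strand), was at 0 reads in the 3 shNC libraries and had 0, 5 and 1 reads in shFTO replicates 1, 2 and 3. Its FPKM in those shFTO libraries was 0, 10.7 and 1.95. One library held 5 of its 6 reads, and the groups overlapped at 0. Over the shNC libraries together, 3 reads would stand at 2.09 FPKM. TMED10 reached the mean of 1 FPKM asked for testing through shFTO alone, so its fitted difference of 1.70 on the log2(FPKM + 1) scale (SE 1.05) is given as a description. It was 2.56 without shFTO replicate 1 and 3.71 with a pseudocount of 0.1. Its pseudogenes TMED10P1 and TMED10P2, whose near-identical sequence could share reads with it, were at 0.

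Of the alpha subfamily, TMED9 (ENSG00000184840, chromosome 5, 177592203 to 177597242, plus strand) had 3.02, 2.82 and 18.2 FPKM in the shNC replicates and 0, 6.05 and 2.75 in the shFTO replicates. shNC replicate 3 stood above all others with 6 of the 11 reads, and the groups overlapped. The log2 difference was -1.16 (SE 0.97, limma adjusted p = 0.772). It was -0.40 without shNC replicate 3, -0.37 without shFTO replicate 1, -1.78 without shFTO replicate 2 and -2.19 with a pseudocount of 0.1. Scaled to depth, reads in shFTO were 0.357 of those in shNC, with an exact 95% interval from 0.0610 to 1.49 that covers counting error only. TMED4 (ENSG00000158604, chromosome 7) had 1 read, in shNC replicate 2, and was not tested.

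Of the gamma subfamily, TMED7 (ENSG00000134970, chromosome 5, 115613210 to 115632992, minus strand) had the most reads, 22. Its FPKM was 7.84, 17.1 and 0 in the shNC replicates and 4.64, 13.1 and 11.9 in the shFTO replicates. The lowest and the highest library both belonged to shNC, and the means were 8.31 ± 8.55 and 9.89 ± 4.59 FPKM. The log2 difference of 0.89 (SE 0.90, limma adjusted p = 0.772) turned to -0.33 without shNC replicate 3, the library at 0. The ratio of reads was 1.14, with an exact 95% interval from 0.452 to 2.95. TMED7 overlaps the readthrough gene TMED7-TICAM2 over 12952 bases of genome on the same strand. That gene was at 0, and reads that fit both cannot be told apart.

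TMED5 (ENSG00000117500, chromosome 1, minus strand) had 2.3, 5.37 and 0 FPKM in the shNC replicates and 2.04, 0 and 0 in the shFTO replicates, from 9 reads. The groups overlapped. TMED5 reached a mean of 1 FPKM through shNC alone, so its log2 difference of -0.93 (SE 1.06) is a description. It was -0.33 without shNC replicate 2, -1.66 without shNC replicate 3 and -1.98 with a pseudocount of 0.1. TMED3 (ENSG00000166557, chromosome 15) had 1 read in shNC replicate 2 and 2 reads in shFTO replicate 1. Its listed exonic length of 19413 bases is the longest of the family, so that 1 read is worth about 0.485 to 0.550 FPKM. TMED1 (ENSG00000099203, chromosome 19), a gamma member, and TMED8 (ENSG00000100580, chromosome 14) were at 0 in all 6 libraries. For the short TMED1 gene (1884 exonic bases) 3 reads in a library would be 15.0 to 17.0 FPKM, while over a group together the limit was 5.51 FPKM in shNC and 5.24 in shFTO. For TMED8 the limit was 3.64 to 4.13 FPKM in a library, and over a group together 1.34 in shNC and 1.27 in shFTO.

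By mean level per length over the 6 libraries the order was TMED2 (132 FPKM), TMED7 (9.10), TMED9 (5.48), TMED10 (2.11), TMED5 (1.62), TMED4 (0.438) and TMED3 (0.247), then TMED1 and TMED8 at 0. The lowest TMED2 library, 88.4 FPKM, lay above the highest library of any other member, 18.2 FPKM for TMED9. From TMED7 downward the ranges of neighbours overlapped, each reaching down to 0, so their order is not resolved at this depth. TMED2 held 297 of the 349 reads of the family, or 85.1%.

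Summed over the other 8 genes, reads differed by less than the spread between libraries. They came to 6, 15 and 6 reads in the shNC replicates and 6, 12 and 7 in the shFTO replicates, or 9.21 ± 4.89 and 8.39 ± 3.82 of 100000 reads. TMED2 alone had 63.7 ± 6.63 and 37.4 ± 4.54 of 100000 reads. With all 9 genes the sums were 72.9 ± 8.09 and 45.8 ± 8.36, and nearly all of the gap between them was in TMED2.

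**Figure D2:**
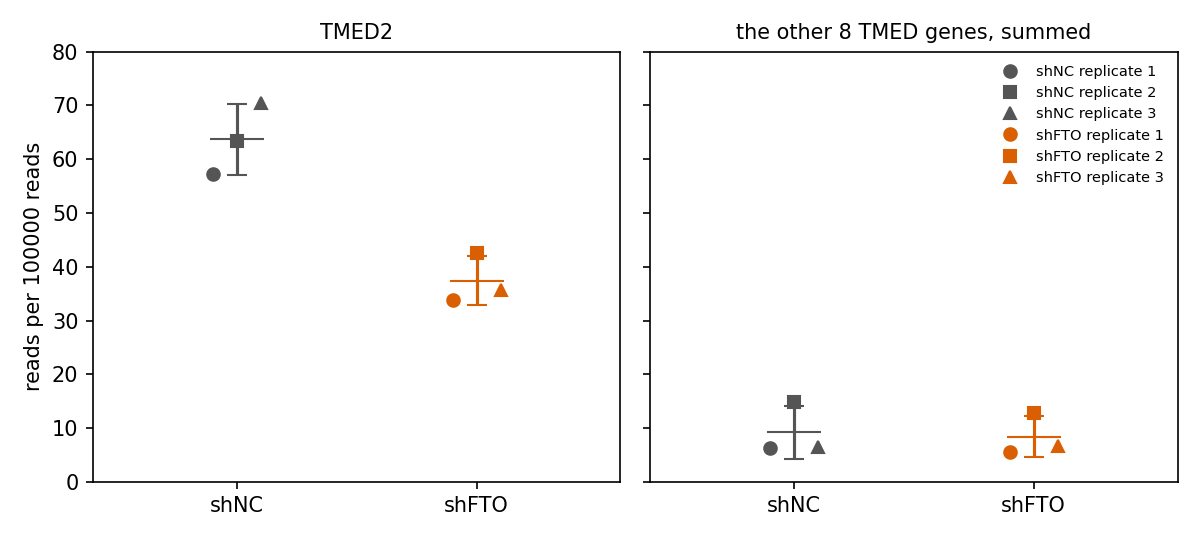
Reads per 100000 reads of the library for TMED2 (left) and for the other 8 TMED genes summed (right), by group. Points are libraries, the horizontal bar is the group mean and the error bar 1 SD (n = 3). The groups stand apart for TMED2 (63.7 and 37.4) and overlap for the other 8 (9.21 and 8.39).

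Of all genes listed, 4932 had a mean of at least 1 FPKM in a group and were tested with limma, and 2 of them (0.0406%) were called at an adjusted p under 0.05. Of the TMED genes 5 entered this fit. TMED7 and TMED9 reached the mean in both groups, and neither was called or had an unadjusted p under 0.05, in limma or in limma-voom on the recovered reads. TMED5 and TMED10 entered through 1 group only. Of the 9 members TMED2 alone had groups that did not overlap. Over all genes tested, 3.69% were lower in every shFTO library and 2.90% higher in every one. As the estimate of TMED2 fixed the choice, nothing is read from that count. With a mean of 1.00 to 3.67 reads per library, the other 4 of the 5 had SEs near 1 on the log2(FPKM + 1) scale. Their differences are therefore poorly resolved. The interval of the read ratio spanned 2-fold in both directions for TMED7 (0.452 to 2.95), but only downward for TMED9 (0.0610 to 1.49).

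**Figure D3:**
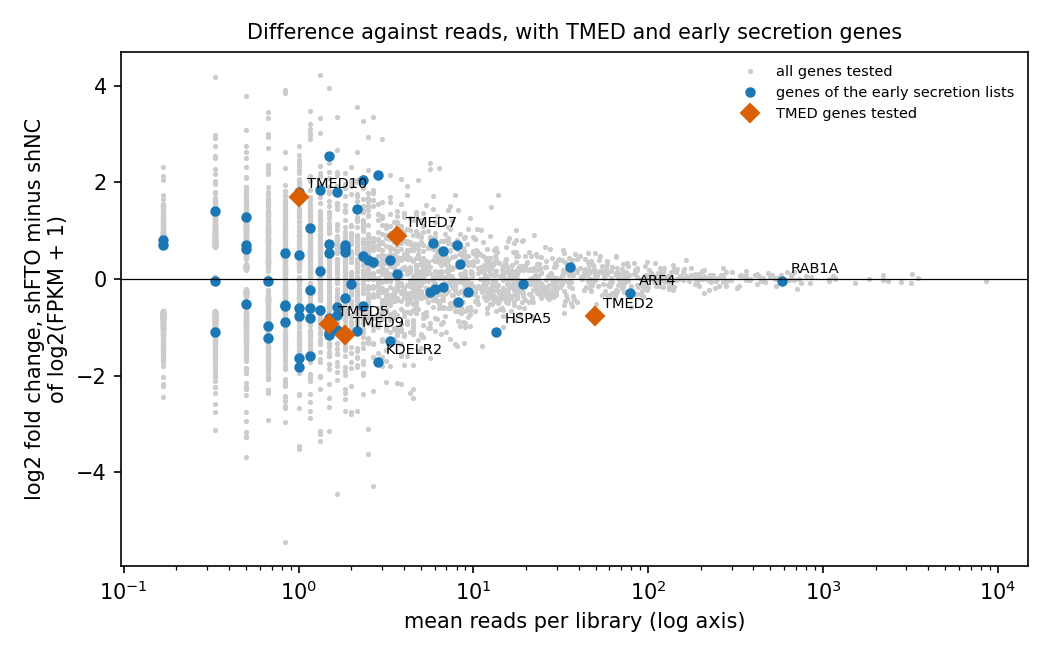
Difference between groups (shFTO minus shNC, log2(FPKM + 1) scale) against mean reads per library on a log axis, for all 4932 genes tested in grey, genes of the early secretion lists in blue and TMED genes as orange diamonds. The spread of estimates narrows as reads rise, TMED2 lies at -0.76, and the other 4 TMED genes lie where reads are few.

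The machinery that works with the p24 proteins was read from 8 lists with 118 genes, of which 89 had reads and 71 were tested, 23 of them through a mean of at least 1 FPKM in 1 group only. In limma 0 rose and 0 fell, with 4 at an unadjusted p under 0.05. Limma-voom called 0 of 71 (6 at an unadjusted p under 0.05), and a quasi-Poisson fit to the reads 0 of 14 (1 under 0.05). Over all genes fitted, 190 of 4932 were under 0.05 in limma, 266 of 4932 in limma-voom and 58 of 1021 in the quasi-Poisson fit. The median log2 difference was -0.11 over the 71 genes and 0.00395 over all genes tested. The groups did not overlap for 5 of the 71 on the lower side (7.04%, against 3.69% of all genes tested) and for 3 on the higher side (4.23%, against 2.90%). This was judged on FPKM, so libraries with equal reads can be set apart by their totals alone, as in KDELR2. The same rule gave the shares over all genes tested. Only ARF4 and RAB1A of the 118 had a higher mean level per length than TMED2, at 307 and 1786 FPKM.

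In the COPI coat and ARF cycle, which returns p24 proteins to the endoplasmic reticulum, 16 of 17 genes were tested, 0 were called, and the median log2 difference was -0.25. ARF4, a small GTPase of the coat cycle, had 319, 317 and 370 FPKM in shNC and 374, 233 and 231 in shFTO. shFTO replicate 1 was the highest of all 6 libraries, so the groups overlapped (log2 difference -0.30, SE 0.16, limma adjusted p = 0.772). The difference was -0.52 without shFTO replicate 1, and -0.19 and -0.18 without shFTO replicates 2 and 3. ARF1, the GTPase that recruits COPI, had 29.1 ± 14.9 and 22.1 ± 15.0 FPKM. COPA, a coat subunit, had 3.94 ± 1.03 and 5.65 ± 3.03 FPKM, and GBF1, an exchange factor for ARF1, had 4.58 ± 1.78 and 3.68 ± 1.82.

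COPII genes, whose coat carries p24 proteins and cargo out of the endoplasmic reticulum, had 109 reads in all. Of 17 genes 10 were tested, with a median log2 difference of 0.03 and 0 calls. TFG, which organises exit sites, had 4.45 ± 3.42 FPKM in shNC and 6.36 ± 3.55 in shFTO. SEC31A, an outer coat subunit, had 2.62 ± 0.723 and 0.727 ± 0.631 FPKM from 7 and 2 reads. It was tested through its level in shNC alone, so no test is read from it. The GTPase genes SAR1A and SAR1B had 12 and 9 reads.

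Other cargo and retrieval receptors stood far below TMED2. Their highest value in any library was 21.7 FPKM, for KDELR2 in shNC replicate 3, against 88.4 for the lowest TMED2 library. Of 18 genes 10 were tested, 0 were called, and the median log2 difference was -0.59, with 3 above 0 and 7 below. KDELR2, a receptor that returns chaperones to the endoplasmic reticulum, had 8.09, 5.04 and 21.7 FPKM in shNC and 4.79, 0 and 4.92 in shFTO. Every shNC library was above every shFTO library in FPKM, from 13 and 4 reads (log2 difference -1.73, SE 0.85, limma adjusted p = 0.772). By replicate these were 3, 2 and 8 reads in shNC and 2, 0 and 2 in shFTO. shNC replicate 2 and shFTO replicates 1 and 3 thus had equal reads and stood apart only through the library totals. The log2 difference was -0.88 without shFTO replicate 2, the library at 0, and -2.85 with a pseudocount of 0.1. LMAN1, a lectin receptor for glycoproteins such as clotting factors, had 4.55 ± 0.909 and 6.65 ± 3.35 FPKM. SURF4, a receptor for soluble cargo, had 8.18 ± 9.02 and 5.82 ± 5.07 FPKM. ERGIC2, a component of the intermediate compartment, had 4.87 ± 4.58 and 1.15 ± 0.998 FPKM. BCAP31, an endoplasmic reticulum sorting protein gene, had 2 and 8 reads and did not overlap on the higher side. It was named after its values were seen.

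Tethers, Rab and SNARE genes gave 0 calls among 9 tested, with a median log2 difference of -0.40. Their summed reads were 621 ± 32.3 of 100000 in shNC and 599 ± 81.0 in shFTO. RAB1A, the Rab GTPase of transport into the Golgi, held 3508 of the 3617 reads of this list. Its FPKM was 1920, 1778 and 1738 in shNC and 2011, 1726 and 1540 in shFTO. The highest and the lowest library were both shFTO (log2 difference -0.05, SE 0.08, limma adjusted p = 0.865). RAB2A had 34 reads, the SNARE gene SEC22B 22 and the tether gene USO1 11.

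GPI-anchored proteins, the best known p24 cargo, gave 0 calls among 8 tested genes of 17, with a median log2 difference of 0.10. CD55, which protects cells from complement, had 7.50 ± 5.24 FPKM in shNC and 5.79 ± 0.938 in shFTO. CD109, a coreceptor that restrains TGF-beta signalling, had 2.10 ± 0.982 and 3.30 ± 2.45 FPKM. PRNP, the prion protein gene, had 4 and 9 reads, and RECK, a matrix metalloproteinase inhibitor gene, had 6 and 2. The genes that remodel the GPI anchor had 5 reads in all, 3 of them in PGAP2 and 1 each in PGAP3 and PGAP4. PGAP1 and MPPE1, which act in the endoplasmic reticulum before p24 binding, were at 0. The remaining family entries, TMED6 and the pseudogene TMED11P, were at 0.

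Among chaperone and stress response genes of the endoplasmic reticulum, 17 of 21 were tested and 0 were called. The median log2 difference was 0.69, with 12 above 0 and 5 below. In limma 3 had an unadjusted p under 0.05, against 190 of all 4932 tested. Summed over the list, reads were 99.9 ± 17.2 of 100000 in shNC and 106 ± 10.3 in shFTO. Only 3 genes of the list averaged 10 or more reads per library, so the median rests mostly on genes with few reads. HSPA5, the main lumenal chaperone gene, was at 29.2, 33.4 and 24.5 FPKM in shNC and at 14.4, 11.4 and 13.3 in shFTO. Like TMED2 it was lower in every shFTO library, from 55 and 26 reads (log2 difference -1.09, SE 0.43, limma adjusted p = 0.772). The SE draws on the spread of all genes fitted. With only genes of at least 10 reads per library in the fit, it was 0.29 (limma adjusted p = 0.559). XBP1, a transcription factor gene of the stress response, was also lower in every shFTO library, with 9 and 4 reads. PDIA3, a disulfide isomerase gene (12 and 23 reads), and ATF4, a transcription factor gene (1 and 8 reads), were higher in every one. XBP1, PDIA3 and ATF4 were named after their values were seen. CANX, a membrane chaperone of glycoproteins, had 23.6 ± 0.489 and 28.7 ± 4.98 FPKM. CALR, its soluble counterpart, had 23.9 ± 14.7 and 34.5 ± 13.0 FPKM, and HSP90B1 had 16.0 ± 8.67 and 14.3 ± 5.84. Of the 5 list genes with at least 10 reads per library (HSPA5, ARF4, HSP90B1, RAB1A and CANX), HSPA5 had the lowest estimate and CANX the highest, 0.26.

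The genes with the profile nearest to TMED2 were sought among 235 genes with at least 10 reads per library and within 2-fold of its read number. Likeness was the root mean square difference of log2(FPKM + 1), centred on each gene's mean, over the 6 libraries. RIOK3, a kinase gene, was nearest at 0.126, followed by HSP90AB1, a cytosolic HSP90 gene, at 0.193, MT-RNR2, the mitochondrial large ribosomal RNA gene, at 0.204, and UBE2Z, a ubiquitin-conjugating enzyme gene, at 0.216. The median over the 235 was 0.482, and a profile with no change between libraries would lie at 0.404. RIOK3 had 87.3, 91.8 and 94.6 FPKM in shNC and 52.3, 72.2 and 61.7 in shFTO. As these genes were chosen for a profile like that of TMED2, their lower values in shFTO follow from the choice. HSP90AB1 and MT-RNR2 have near-identical copies in the genome that can share reads.

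**Figure D4:**
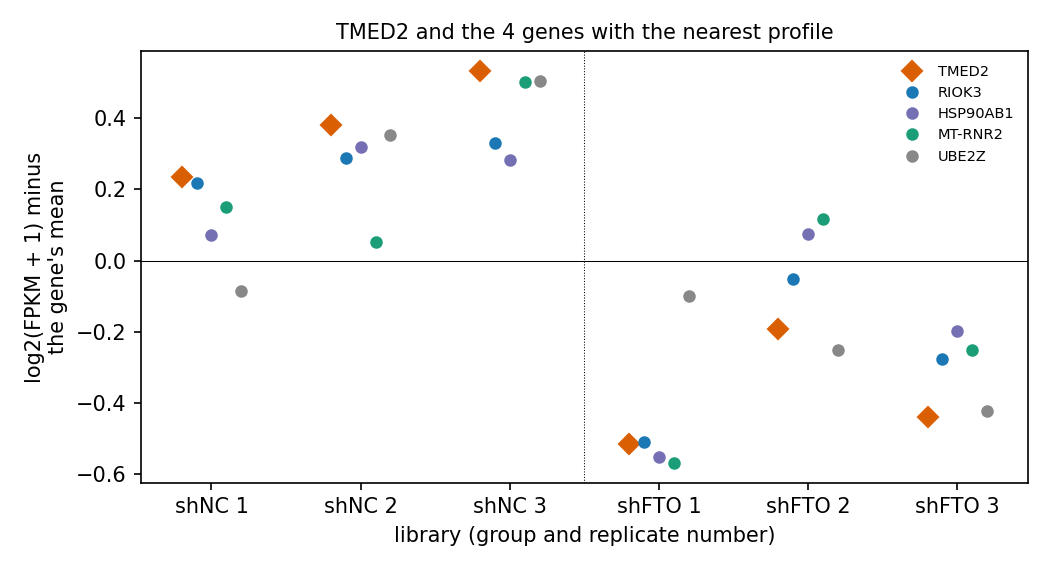
log2(FPKM + 1) minus the gene's own mean, by library, for TMED2 (orange diamonds) and the 4 genes with the nearest profile (circles). TMED2 is above its mean in the 3 shNC libraries and below it in the 3 shFTO libraries, and RIOK3 is nearest to it at a root mean square difference of 0.126.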

How the data were processed

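Poly(A) RNA of 6 MG63 libraries was sequenced on a strand-specific protocol, per the labels' protocols. The authors deposited FPKM values to 2 decimals beside each gene's exonic length and position. The submitters' processing notes name the build GRCh38 and the tools HTSeq 0.6.1, HISAT2 2.2.1, DESeq2 1.50.2, StringTie 1.3.3b and FastQC 0.10.1. How these were combined, and whether counting used strand, is not given in the sources used here. FPKM shares out a fixed total, so abundant genes lower all others.

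The reads behind each library were recovered by searching totals from 20000 to 200000 for the one at which the product of FPKM and length was a whole number of reads. This held for 100% of nonzero values to within 0.05 read. Limma 3.58.1 (R 4.3.3; trend, robust) was run on log2(FPKM + 1) over all genes whose mean reached 1 FPKM in either group, with the group as the only term and Benjamini-Hochberg adjustment over 4932 genes. Differences on this scale understate changes of low genes, and where libraries are at 0 they can exceed the ratio of means. Intervals of read ratios are exact, conditional on the summed reads, at 95%. Reads carry no molecular identifiers, so they cover counting error only. Adjusted p-values set groups against a spread between libraries that limma moderates toward a trend over all genes fitted. They therefore do not measure a gene's own spread over its 3 libraries per group alone. Pairs of libraries within a group differed by more than counting noise (chi-square per degree of freedom 1.78 to 2.08). Python 3.11.15 and SciPy 1.17.1 were used for summaries.

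The members and lists were chosen with earlier results of these data known. Genes were named by a rule: all members, the 4 most-read genes of each list, called list genes, the 2 highest and 2 lowest estimates among list genes with at least 10 reads per library, and the 4 profiles nearest to TMED2. Alternatives were a pseudocount of 0.1, no filter, at least 10 reads per library, median-of-ratios scaling, limma-voom, a quasi-Poisson fit to genes with at least 30 reads, a replicate block, an adjusted p under 0.01 and each library left out.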

Additional observations from a re-analysis of the deposited data

How the results depend on the processing

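The number of genes called over the whole table, 2, changed with the processing: it was 7 with a pseudocount of 0.1, 9 without a filter, 0 with at least 10 reads per library (31 at an unadjusted p under 0.05), 5 in limma-voom, 0 in the quasi-Poisson fit (58 at an unadjusted p under 0.05), 1 at an adjusted p under 0.01, and from 2 to 9 with a library left out, the highest without shNC replicate 2. It was 7 without shNC replicate 3 and 8 without shFTO replicate 1. With the replicate block it was 17, but same-numbered libraries did not deviate together (correlations of -0.00292, 0.0392 and -0.0116 over 705 genes), and 2 of 6 libraries correlated best with their own number, so the numbers are not taken as pairs. TMED2 entered every fit, but its p is not given because its estimate picked the family. No other TMED gene and no other gene followed was called under any of these settings that gave it a value. BCAP31, XBP1, PDIA3 and ATF4 were not followed. Without shFTO replicate 2, TMED10 fell under the filter and has no value.

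The difference of TMED2 was negative under all 13 alternatives, from -0.86 to -0.69 with a library left out. As all its shFTO libraries lay below all its shNC libraries, leaving a library out could not turn the sign. This describes the value that picked the family and is not taken as support for it. The summed TMED reads, shFTO minus shNC, were -27.1 of 100000, from -31.9 to -24.0 with a library left out, and -0.818 without TMED2. Of 34 genes followed, 12 changed sign somewhere, SAR1A (0.69 with a pseudocount of 0.1) and otherwise only with a library left out. Their ranges were -0.33 to 1.76 for TMED7, -0.56 to 0.0417 for GBF1, -0.91 to 0.86 for SAR1A, -0.0833 to 1.05 for TFG, -1.16 to 0.52 for SURF4, -0.15 to 0.0417 for RAB1A, -0.51 to 0.21 for RAB2A, -0.47 to 0.51 for SEC22B, -0.45 to 0.30 for CD55, -0.0684 to 0.80 for CD109, -1.45 to 0.25 for RECK and -0.38 to 0.28 for HSP90B1. The cause was not tested. Reads limit all members but TMED2.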
